A study of Homo sapiens with 12 samples.

Results

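The genes described here code for the epidermal growth factor (EGF) receptors and for the proteins that bind or restrain them. They are 5 ligand genes (AREG, AREGB, EREG, HBEGF and TGFA), 3 receptor genes (EGFR, ERBB2 and ERBB3) and ERRFI1, an inhibitor that receptor signalling itself induces. These 9 genes were taken by name out of 57736 genes in the count tables, among which 27326 were detected in 1 or more libraries. All 9 had counts in both cell lines.

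The study compared HepG2, a human liver carcinoma cell line, and Ls174, a human colon adenocarcinoma cell line, each cultured with or without an extract of the red seaweed Hypnea musciformis (HME). The labels give both lines as wild type, and general culture of both was in serum-containing medium. For treatment with the extract, the paper names serum-free medium in its proliferation, cell death and membrane potential assays. Its methods do not name the medium during treatment of the cultures used for RNA. The HME groups received 0.7 mg/ml of extract for 24 h by the labels, while the methods give a slightly different concentration, and the control groups, labelled untreated, were collected at the same time. Each of the 4 groups had 3 replicates, which gave 12 libraries of the 3′ ends of transcripts. An extract is a mixture, so a difference between the groups cannot be assigned to a compound, and 2 cell lines stand for no tissue beyond themselves.

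The EGF receptors are membrane proteins with a tyrosine kinase inside the cell. Their ligands are made as membrane-anchored precursors, are released from the cell surface by proteases of the ADAM family, and bring receptors together in pairs, which switches on the RAS and MAPK cascade and PI3 kinase. ERBB2 has no known ligand and ERBB3 has little kinase activity of its own, so both act mainly as partners in such pairs. Signalling is limited by removal of receptors from the surface and by inhibitors such as ERRFI1 (MIG6), which binds the kinase. The pathway takes part in regrowth of liver and renewal of the gut lining, and it is a drug target in colon cancer.

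Levels are given as counts per 1000000 counts of a library (CPM) after scaling by trimmed mean of M values (TMM) over all 12 libraries, always in the order of replicates 1, 2 and 3. Since a 3′ library counts about 1 tag per transcript, CPM was not divided by length. A gene was called at an adjusted p below 0.05 in edgeR's quasi-likelihood test, with Benjamini-Hochberg adjustment over all genes tested, and every adjusted p below without another name comes from that test. The thresholds of the study, an unadjusted p below 0.05 with a change of more than 0.58 up or down on the log2 scale, were counted beside it. Errors of fold changes are standard errors (SE), and errors of levels are standard deviations (SD) of 3 libraries. The libraries held between 1790841 and 3656662 counts, so that 3 counts, taken as the floor, corresponded to between 0.768 and 1.87 CPM. Of 8 liver markers such as ALB, all were measured in HepG2, with a summed level between 13900 and 21900 CPM, against 129 CPM or less in every Ls174 library. The 8 intestinal markers summed to between 374 and 445 CPM in Ls174 and to between 69.1 and 209 CPM in HepG2, but KRT20 was at 0 in the Ls174 control libraries. MUC2 and CEACAM5 reached at most 2.17 and 6.05 CPM in Ls174. VIL1 went the other way with HME, at 116, 120 and 94.3 CPM in HepG2 against 58.7, 54.8 and 65.1 CPM in Ls174. Without HME it stood at 188, 52.9 and 169 CPM in HepG2 and at 42.3, 79.2 and 67.1 CPM in Ls174, with overlap. HepG2 control 2 and Ls174 control 1 lay apart from the other controls of their lines: the chi-square per degree of freedom over genes was 49.1 and 54.1 between HepG2 control 2 and the other controls, which differed from each other by 13.6, and 34.5 and 37.0 between Ls174 control 1 and the others, against 5.68. HepG2 HME 2 held 1080 CPM of 8 mesenchymal markers, mostly COL1A1 and COL1A2, against at most 87.4 CPM in the other libraries. The part of these libraries in the results below is given where leaving them out changed a call.

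With HME, 4 of the 9 genes rose in HepG2, namely HBEGF, ERRFI1, AREGB and AREG, and none was called lower, where 2.77% of all genes tested were called higher and 0.538% lower. AREG and AREGB are near-identical copies whose reads the counting may not separate, and with their counts summed 3 of 8 members rose. In Ls174, with 0.318% of all genes called higher and 0.866% lower, the 1 member called was a receptor, ERBB2, which was lower with HME. A lower level can come from fewer cells in a given state or from less RNA per cell, and these bulk libraries cannot tell the 2 apart. CPM is also a share of the counts of a library, so it depends on the other genes. The paper based the concentration on its growth inhibition assay. In its cell death assay it reports fewer viable cells and more late apoptotic and necrotic cells after treatment in both lines. The part of dying cells in the changes, higher or lower, was not tested. The stretches just before the starts of 3 of the genes that rose in HepG2 are shown, and EREG is added as the neighbour of AREG on chromosome 4. Whether these sequences have a part in the changes was not tested. Each is the 250 bases before the annotated start, read 5′ to 3′ on the gene's strand, from RefSeq on GRCh38.p14, with matches to the motifs in capitals.
AREG, chr4:74444886-74445135, plus strand: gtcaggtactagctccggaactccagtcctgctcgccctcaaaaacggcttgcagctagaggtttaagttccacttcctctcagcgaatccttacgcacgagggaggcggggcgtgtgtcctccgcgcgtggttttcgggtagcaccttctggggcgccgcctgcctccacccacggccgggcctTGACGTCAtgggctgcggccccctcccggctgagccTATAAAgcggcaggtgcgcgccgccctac
EREG, chr4:74364895-74365144, plus strand: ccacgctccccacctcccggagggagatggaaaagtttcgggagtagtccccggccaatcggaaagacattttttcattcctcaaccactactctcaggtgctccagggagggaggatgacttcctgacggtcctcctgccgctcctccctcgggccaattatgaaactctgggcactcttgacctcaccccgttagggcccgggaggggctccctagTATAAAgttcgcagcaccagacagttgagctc
HBEGF, chr5:140346604-140346853, minus strand: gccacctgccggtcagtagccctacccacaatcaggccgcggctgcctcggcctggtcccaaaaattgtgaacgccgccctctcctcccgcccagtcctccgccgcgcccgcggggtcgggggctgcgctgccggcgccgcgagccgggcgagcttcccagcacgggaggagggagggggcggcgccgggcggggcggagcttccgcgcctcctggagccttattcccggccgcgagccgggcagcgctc
ERRFI1, chr1:8026310-8026559, minus strand: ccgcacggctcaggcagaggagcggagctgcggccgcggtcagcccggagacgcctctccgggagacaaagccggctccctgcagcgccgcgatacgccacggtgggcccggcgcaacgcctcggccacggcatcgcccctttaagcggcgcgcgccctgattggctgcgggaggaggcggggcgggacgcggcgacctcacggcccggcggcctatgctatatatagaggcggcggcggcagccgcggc

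The motifs searched, on both strands, were the AP-1 site TGANTCA, the cAMP response element (CRE) TGACGTCA, the TATA box TATAAA and the CArG box, which serum response factor binds. The search covered the 300 bases from 250 before to 50 after each start, in 9 promoters of 7 of the 9 genes. AREG held a CRE from 65 to 58 bases before its start and a TATA box from 29 to 24 bases before it. EREG held a TATA box from 32 to 27 bases before its start, and none of the motifs in these exact letters was matched in HBEGF, ERRFI1 or TGFA. Only TATAAA was counted as a TATA box. Other runs of T and A, such as tatatata near the end of the ERRFI1 sequence shown, were therefore not counted. At the second of the EGFR starts in the table there were 2 AP-1 matches and 2 TATA boxes, and ERBB2 had 1 AP-1 match. Of all 35116 promoters of the same length, 1.85% held the CRE, 7.71% the AP-1 site, 11.5% the TATA box and 1.29% the CArG box. The 250 bases shown were 76.4% G or C for HBEGF, 75.2% for ERRFI1, 65.2% for AREG and 58.0% for EREG. These matches describe letters and say nothing of binding.

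**Figure D1:**
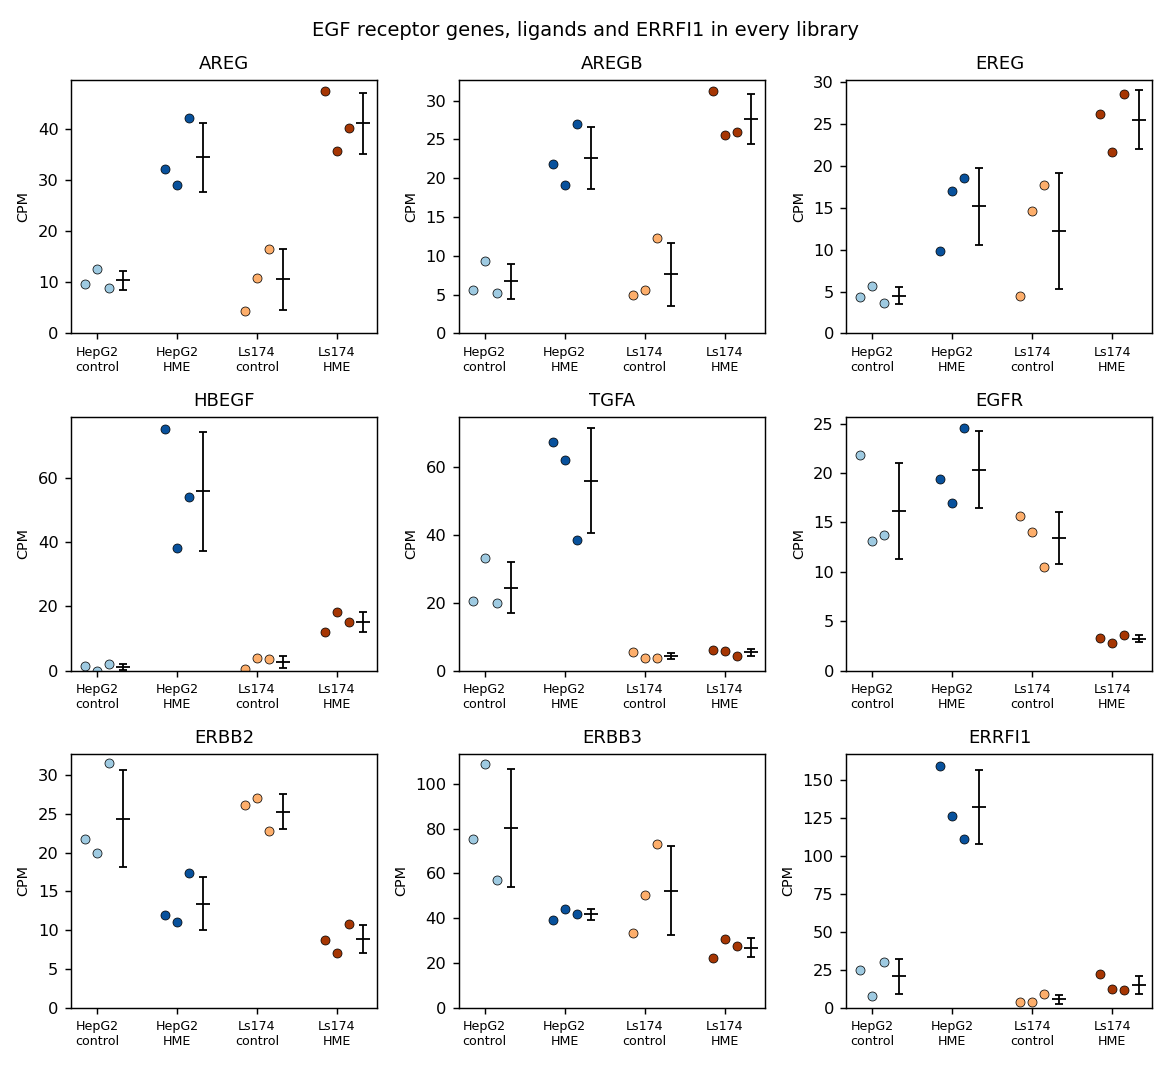
Levels of the 9 genes in CPM (vertical axes, from 0, with a separate scale for each gene) in the 4 groups (horizontal axes). Each point is 1 library, in the order of replicates 1, 2 and 3, and the bar beside the points is the mean ± SD of 3 libraries. All HME libraries lie above all control libraries of the same line for AREG, AREGB, EREG, HBEGF and ERRFI1, and below them for ERBB2 and ERBB3; EGFR is lower with HME in Ls174, where its HME mean is 3.25 CPM, and overlaps in HepG2.

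The ligand genes were examined first. HBEGF codes for heparin-binding EGF-like growth factor, and its reads came mainly, to 95.9%, from chr5:139712231-139713865 (GRCh37, minus strand), which covers the 3′ untranslated region (UTR) of the last exon and extends past the end of the gene. HBEGF in HepG2 stood at 1.34, 0 and 2.02 CPM in the control libraries and at 75.2, 38.2 and 54.1 CPM in the HME libraries. The groups did not overlap, and every HME library was far above the control libraries, whose counts were 5, 0 and 5. The log2 fold change of HBEGF was 5.46 (SE 0.59, adjusted p = 0.00208), the largest of the 9 genes in either line, and its exact size rests on the 10 control counts. HBEGF was called in all 17 alternative settings that tested it in HepG2. Its values in Ls174 were 0.492, 4.04 and 3.58 CPM without and 12, 18.1 and 15.1 CPM with HME. These groups did not overlap either, but the change of 2.37 (SE 0.55) missed the threshold (adjusted p = 0.100), and without Ls174 control 1 it was called (adjusted p = 0.0019).

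AREG codes for amphiregulin. Its reads came to 88.2% from chr4:75320476-75320923 (GRCh37, plus strand), at the end of the gene, with coding bases, 3′ UTR and the stretch just downstream. In HepG2 AREG stood at 9.68, 12.5 and 8.89 CPM in the control libraries and at 32.1, 29.0 and 42.0 CPM with HME, without overlap. AREG rose by 1.74 on this scale (SE 0.35, adjusted p = 0.0271). In Ls174 the control libraries were at 4.43, 10.9 and 16.4 CPM and the HME libraries at 47.4, 35.6 and 40.1 CPM. Again the groups did not overlap, and the change of 1.90 (SE 0.40) was as large as in HepG2, yet it missed the threshold (adjusted p = 0.0715). The control libraries of Ls174 spread more widely, with an SD of 5.99 CPM around a mean of 10.6 CPM, against 1.87 around 10.3 CPM in HepG2. Without Ls174 control 1, the lowest of them, AREG was called (adjusted p = 0.000515), and the call in HepG2 was lost when any library other than control 2 was left out, with adjusted p up to 0.135.

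AREGB is the name the tables give to a second copy of AREG, 169312 bases further along chromosome 4, with most of its reads (89.5%) at chr4:75490235-75490683 (GRCh37, plus strand). Of the 448 bases of the AREG region, 447 were identical to the 449 bases of the AREGB region, with 1 mismatch and 1 gap, and 71.3% of all 100-base windows of the AREG region were found unchanged in the other. How the authors' counting divided reads that match both copies is not given in the sources used here, so the 2 genes are not separate measurements. In HepG2 AREGB stood at 5.65, 9.34 and 5.25 CPM without and at 21.8, 19.1 and 27.0 CPM with HME (log2 fold change 1.77, SE 0.40, adjusted p = 0.0434). Its Ls174 values were 4.92, 5.59 and 12.3 CPM without and 31.3, 25.6 and 26.0 CPM with HME (1.81, SE 0.38, adjusted p = 0.0715). In both lines the HME libraries lay above all control libraries, as for AREG, and the AREGB call in HepG2 was likewise lost when any library other than control 2 was left out, with adjusted p up to 0.178, and on the counted region with the most reads alone (adjusted p = 0.0707).

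The share of AREGB in the counts of both copies was 40.1% over all libraries (516 of 1287) and between 34.0% and 52.6% in single libraries. The extreme shares belonged to Ls174 control 2, with a 95% Wilson interval of 22.7% to 47.4%, and Ls174 control 1, with 31.7% to 72.7%, and these overlap. Intervals here cover counting error only. With the counts of both copies summed, the log2 fold change with HME was 1.75 in HepG2 (SE 0.34, adjusted p = 0.0246) and 1.88 in Ls174 (SE 0.36, adjusted p = 0.0507).

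EREG, which codes for epiregulin, lies before AREG on chromosome 4, and 94.6% of its reads came from its 3′ UTR at chr4:75250526-75254665 (GRCh37, plus strand). EREG in HepG2 stood at 4.30, 5.61 and 3.64 CPM without and at 9.89, 17.0 and 18.6 CPM with HME. The groups did not overlap, and the change of 1.76 (SE 0.44) lay just outside the threshold (adjusted p = 0.0602). The Ls174 libraries held 4.43, 14.6 and 17.7 CPM without and 26.2, 21.7 and 28.6 CPM with HME, where the change was 1.02 (SE 0.42, adjusted p = 0.352). The lowest Ls174 control was again control 1. EREG was called in HepG2 without control 2 (adjusted p = 0.0286) and by DESeq2, among others, and in Ls174 by none of the alternatives.

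TGFA codes for transforming growth factor alpha, and all of its reads came from 1 region with its 3′ UTR, chr2:70674215-70677990 (GRCh37, minus strand). TGFA in HepG2 stood at 20.4, 33.0 and 19.8 CPM without and at 67.3, 61.9 and 38.4 CPM with HME. The groups did not overlap, and the change of 1.21 (SE 0.37) missed the threshold (adjusted p = 0.103). Without HepG2 control 2, the highest control for TGFA, it was called (adjusted p = 0.0161). In Ls174 it stood at 5.41, 3.72 and 3.84 CPM without and at 6.19, 5.69 and 4.27 CPM with HME, and these ranges overlapped (0.32, SE 0.45, adjusted p = 0.780).

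The receptor genes were examined next. EGFR codes for the receptor that binds all of the ligands above, and 96.9% of its reads came from its 3′ UTR at chr7:55273311-55279518 (GRCh37, plus strand). EGFR in HepG2 stood at 21.8, 13.1 and 13.7 CPM without and at 19.4, 17.0 and 24.6 CPM with HME. These ranges overlapped, and the change was 0.32 (SE 0.35, adjusted p = 0.620). In Ls174, by contrast, EGFR stood at 15.7, 14.0 and 10.5 CPM without and at 3.28, 2.84 and 3.61 CPM with HME, from 28 counts in all in the HME libraries. The groups in Ls174 were clearly apart, but the change of -2.03 (SE 0.39) just missed the threshold (adjusted p = 0.0545). It was called with scaling by library size alone, by DESeq2, and without Ls174 control 1 (adjusted p = 0.00472).

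ERBB2 codes for the receptor HER2. In HepG2 it stood at 21.8, 19.9 and 31.5 CPM without and at 11.9, 11 and 17.4 CPM with HME, without overlap, and the change was -0.86 (SE 0.36, adjusted p = 0.193). In Ls174 it stood at 26.1, 27.0 and 22.8 CPM without and at 8.74, 7.11 and 10.8 CPM with HME. Here the HME libraries were at 10.8 CPM or less and the control libraries at 22.8 CPM or more, and ERBB2 was the only member called in Ls174 (-1.50, SE 0.28, adjusted p = 0.0487). This value lies close to the threshold: with DESeq2's size factors or upper-quartile scaling ERBB2 was not called, nor when a library other than control 1 was left out, with adjusted p up to 0.331. The counts of ERBB2 came to 79.9% from the end of the gene at chr17:37883942-37885112 (GRCh37, plus strand), which overlaps a counted region of MIEN1 on the other strand with 7 counts. The share of that region was 84.3% in HepG2 control and 64.4% in HepG2 HME libraries, and 86.5% and 67.5% in those of Ls174, with the rest spread over other counted regions of the gene.

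ERBB3 codes for HER3, the receptor of the neuregulins. In HepG2 it stood at 75.3, 109 and 57.0 CPM without and at 39.2, 44.2 and 42.0 CPM with HME, and in Ls174 at 33.4, 50.3 and 73.0 CPM without and at 22.2, 30.6 and 27.6 CPM with HME. In both lines each HME library was below each control library. The log2 fold changes, -0.95 in HepG2 (SE 0.35, adjusted p = 0.156) and -0.97 in Ls174 (SE 0.30, adjusted p = 0.212), did not pass the threshold. Without Ls174 control 1 the change in Ls174 was called (adjusted p = 0.0015). The main region at chr12:56495313-56497486 (GRCh37, plus strand), with the last coding bases and the 3′ UTR, gave 93.7% of its counts. A region at chr12:56478924-56479597, in an early part of the gene, gave 14 counts (2.35%) without and 34 (11.6%) with HME in HepG2, and 9 (1.75%) without and 21 (9.09%) with HME in Ls174.

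ERRFI1, the feedback inhibitor, was counted to 96.7% at chr1:8071582-8073269 (GRCh37, minus strand), mostly 3′ UTR. ERRFI1 in HepG2 stood at 24.5, 7.48 and 29.9 CPM without and at 159, 126 and 111 CPM with HME. All HME libraries were far above all controls, of which control 2 was the lowest, and the log2 fold change was 2.68 (SE 0.46, adjusted p = 0.0140). The call was lost without HME 1 (adjusted p = 0.0605) or HME 3. Its Ls174 levels were 3.44, 4.04 and 8.96 CPM without and 21.9, 12.1 and 11.5 CPM with HME. These groups did not overlap, but the change of 1.41 (SE 0.47) did not pass (adjusted p = 0.246), nor in any alternative.

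Counted over the 9 genes, edgeR called 4 higher and 0 lower with HME in HepG2, where 2.77% of the 11343 genes tested were called higher and 0.538% lower. ERBB2 and ERBB3, both lower, had an unadjusted p below 0.05, and DESeq2 called 0 members lower and 5 higher. By the thresholds of the study, 6 members were higher and 2 lower, against 11.3% and 10.9% of all genes. The 2 groups of libraries did not overlap for 8 members in HepG2, 6 higher and 2 lower, against 15.5% and 15.3% of all genes. The median log2 fold change of the 9 was 1.74, beside -0.04 over all genes tested. AREG and AREGB enter these counts and the median as 2 members, though they are not separate measurements. With their counts summed, 7 members had an unadjusted p below 0.05 in edgeR, in place of 8. Without control 2, 6 members were called among 921 genes in all, and without HME 2, the library with the mesenchymal markers, HBEGF and ERRFI1 were among 142 genes, in place of 375 with all libraries.

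In Ls174, edgeR called 1 member lower and 0 higher, against 0.866% of 11319 genes lower and 0.318% higher. With an unadjusted p below 0.05 and a change beyond 0.58, 5 members were higher and 3 lower, against 4.11% and 7.85% of all genes, and DESeq2 called 3 higher and 2 lower. Libraries did not overlap for 8 members, 5 higher and 3 lower, against 11.6% and 12.2% of all genes. The median log2 fold change was 1.02, beside 0.00 over all genes. Here too AREG and AREGB are counted as 2 members. With their counts summed, 7 members had an unadjusted p below 0.05 in edgeR, in place of 8. Without Ls174 control 1, in which 13885 genes had a count against at least 16971 in the other Ls174 libraries, 6 members and 979 genes in all were called. With control 2 or control 3 left out no member and only 2 and 10 genes in all were called, and with any HME library left out no gene was, so those counts of 0 say nothing of the members.

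**Figure D2:**
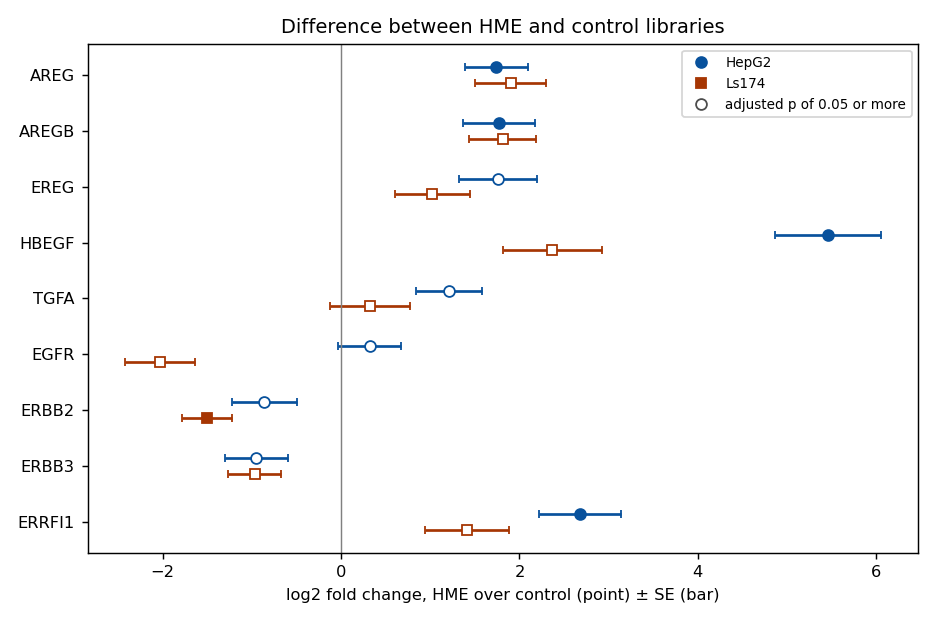
Log2 fold change of HME over control (horizontal axis, point) with its SE (bar) for the 9 genes, in HepG2 (circles) and Ls174 (squares); filled symbols have an adjusted p below 0.05. AREG and AREGB lie close together in both lines, at 1.74 to 1.90, whereas HBEGF is at 5.46 in HepG2 and 2.37 in Ls174, and EGFR is at 0.32 in HepG2 and -2.03 in Ls174.

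Whether the response to HME differed between the lines was tested by itself, over all 12 libraries. No member had an adjusted p below 0.05 for this difference in edgeR, where 0.644% of 13040 genes did; 2 members had an unadjusted p below 0.05, and DESeq2 called the same 2. Both also passed the thresholds of the study, which 7.42% of all genes did in this direction. They were EGFR, whose change was higher in HepG2 by 2.32 on the log2 scale (SE 0.50, adjusted p = 0.0536), and HBEGF, higher in HepG2 by 3.07 (SE 0.84, adjusted p = 0.128). EGFR was called without HepG2 control 1. Without Ls174 control 1 both genes were called, and likewise without both controls that lay apart, a setting chosen after seeing the data. The other differences were ERRFI1 1.24 (SE 0.66, adjusted p = 0.447), TGFA 0.87 (SE 0.51), EREG 0.73 (SE 0.63), ERBB2 0.62 (SE 0.45), ERBB3 0.03 (SE 0.45), AREGB -0.05 (SE 0.56) and AREG -0.18 (SE 0.54). For AREG the 95% interval of this difference, from its SE, ran from -1.24 to 0.88, so that sizeable differences in either direction remain possible.

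The ligand and receptor genes were also summed within each library, as a description. The 5 ligand genes summed to 41.4, 60.4 and 39.6 CPM in HepG2 control and to 206, 165 and 180.0 CPM in HepG2 HME libraries. In Ls174 they summed to 19.7, 38.8 and 53.8 CPM without and to 123, 107 and 114 CPM with HME. The sum of the 3 receptor genes was lower with HME, going from 121 ± 20.0 to 75.5 ± 7.44 CPM in HepG2 and from 90.9 ± 15.5 to 38.9 ± 4.14 CPM in Ls174 (SD, n = 3). ERBB3 made up most of it, at a mean of 80.4 and 41.8 CPM in HepG2 without and with HME, while EGFR was at 16.2 and 20.3 CPM there, and no receptor gene was called in HepG2. The ratio of both sums went from 0.387 ± 0.0385 to 2.45 ± 0.417 in HepG2 and from 0.398 ± 0.125 to 2.98 ± 0.535 in Ls174. Control and HME libraries therefore did not overlap in this ratio, whose parts had been seen before it was formed. Of the ligand genes, HBEGF added the most to the mean sum in HepG2, from 1.12 to 55.8 CPM, and AREG in Ls174, from 10.6 to 41.0 CPM.

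**Figure D3:**
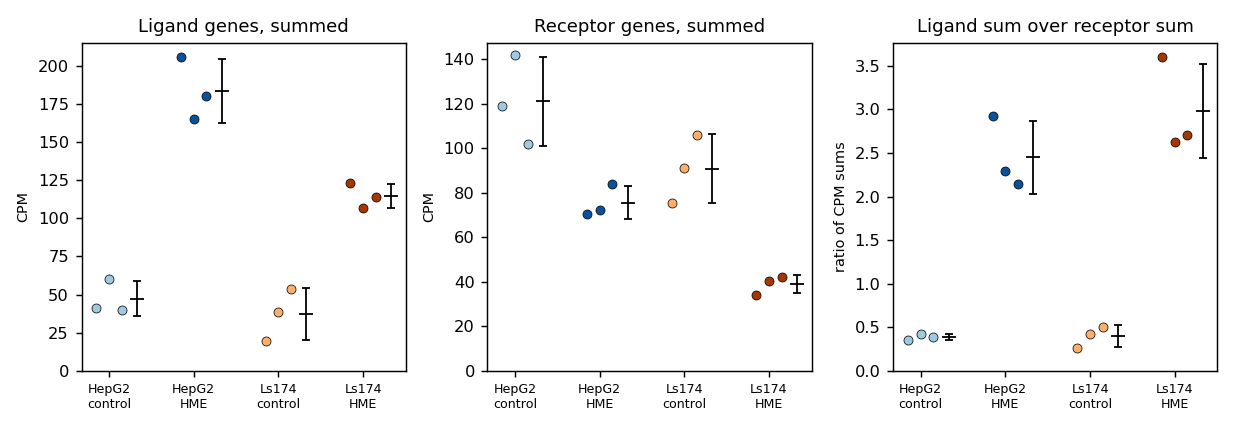
Summed CPM of the 5 ligand genes (left), summed CPM of the 3 receptor genes (middle) and their ratio (right) in the 4 groups, with 1 point per library and the mean ± SD of 3 libraries beside it. The ligand sum is higher and the receptor sum lower in every HME library than in every control library of the same line, and the ratio is 0.506 or less without and 2.14 or more with HME.

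The 2 lines were then compared with each other. Without HME, 8 members could be tested, since HBEGF had too few counts, and only TGFA was called, at 24.4 ± 7.45 CPM in HepG2 and 4.32 ± 0.941 CPM in Ls174 (log2 difference 2.54, SE 0.46, adjusted p = 0.00336), while 23.5% of the 11907 genes tested were called in either direction. It was called in all 19 alternatives. ERRFI1 was at 20.6 ± 11.7 CPM in HepG2 and 5.48 ± 3.03 CPM in Ls174 (1.90, SE 0.61, adjusted p = 0.0515), with overlap, because HepG2 control 2 was at 7.48 CPM and Ls174 control 3 at 8.96 CPM. EREG was at 4.52 ± 1.00 CPM in HepG2 and 12.2 ± 6.93 CPM in Ls174 (-1.43, SE 0.61, adjusted p = 0.128). ERRFI1 was called without HepG2 control 2 or without Ls174 control 3, and EREG without Ls174 control 1, and both were called beside TGFA without the 2 controls that lay apart. AREG, EGFR and ERBB2 had similar means in the untreated lines, 10.3 and 10.6, 16.2 and 13.4, and 24.4 and 25.3 CPM, although for AREG the interval of the log2 difference ran from -1.08 to 1.03.

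With HME, 5 members were higher in HepG2 and 1 in Ls174, against 28.6% and 26% of the 11914 genes tested. TGFA was at 55.9 ± 15.3 CPM in HepG2 and 5.38 ± 0.997 CPM in Ls174 (3.40, SE 0.29, adjusted p = 3.68e-06), and ERRFI1 was at 132 ± 24.6 and 15.2 ± 5.82 CPM (3.14, SE 0.28, adjusted p = 4.62e-06). EGFR was 6.19-fold higher in HepG2 (2.63, SE 0.31, adjusted p = 4.19e-05) and HBEGF 3.73-fold (1.90, SE 0.28, adjusted p = 0.000193). ERBB3 was higher in HepG2 by 0.66 (SE 0.20, adjusted p = 0.0172), and this call was lost with scaling by library size alone or by upper quartile, in 1 fit of all 12 libraries, and without Ls174 HME 1. EREG was the member higher in Ls174, at 25.5 ± 3.51 against 15.2 ± 4.64 CPM (-0.74, SE 0.28, adjusted p = 0.0403). It was called in 12 of 18 alternatives. DESeq2 did not call it, nor did edgeR in 1 fit of all 12 libraries (adjusted p = 0.176) or without HepG2 HME 1, Ls174 HME 1 or Ls174 HME 3. AREG, AREGB and ERBB2 were not called. As 54.6% of the genes tested were called in this comparison, the count of 6 of 9 members is near the background.

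**Figure D4:**
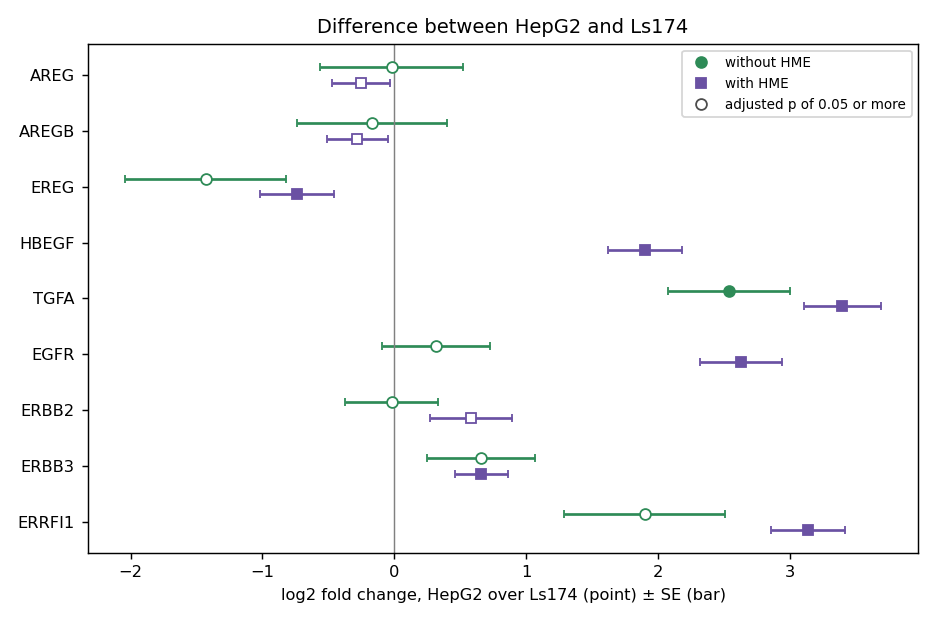
Log2 difference of HepG2 over Ls174 (horizontal axis, point) with its SE (bar) for the 9 genes, without HME (circles) and with HME (squares); filled symbols have an adjusted p below 0.05, and HBEGF without HME was not tested. EGFR is at 0.32 without and 2.63 with HME, and TGFA is above 2 in both.

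Ordered by level, HME libraries of Ls174 and HepG2 came before both control groups for AREG and AREGB, with no overlap between HME and control groups. For HBEGF the order was HepG2 HME, Ls174 HME, Ls174 control and HepG2 control, of which only the last 2 overlapped. For TGFA it was HepG2 HME, HepG2 control, Ls174 HME and Ls174 control, again with overlap only between the last 2. For EGFR it was HepG2 HME, HepG2 control, Ls174 control and Ls174 HME, where HepG2 control overlapped both of its neighbours, HepG2 HME and Ls174 control did not overlap, and Ls174 HME stood apart below all of them. For ERRFI1 the order was HepG2 HME, HepG2 control, Ls174 HME and Ls174 control, with overlap between HepG2 control and Ls174 HME.

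The other genes of the pathway were described from lists. Of the 8 other family genes (EGF, BTC, EPGN, NRG1, NRG2, NRG3, NRG4 and ERBB4), none had enough counts to be tested in HepG2 and only EGF did in Ls174, at 4.39 ± 3.80 CPM without and 5.09 ± 1.17 CPM with HME (0.14, SE 0.82, adjusted p = 0.956). Of the 7 genes for release of ligands from the cell surface, 6 were tested in HepG2 and 0 called. RHBDF1, which helps the protease ADAM17 to mature, had a value of 1.33 there (SE 0.35, adjusted p = 0.0716). In Ls174, where 0.866% of all genes were called lower, 5 were tested and 1 was called. It was ADAM10, a protease that releases EGF and betacellulin, which fell from 38.3 ± 6.03 to 12.4 ± 2.29 CPM (-1.62, SE 0.27, adjusted p = 0.0348). This call was lost when any library other than control 1 was left out, with adjusted p up to 0.274, and so were those of LRIG1 and DUSP4 in Ls174 below, with adjusted p up to 0.274 for each. The median change of this list was 0.32 in HepG2 and -0.67 in Ls174, and for the difference between the lines ADAM17, the main protease for AREG and HBEGF, had a value of 1.46 (SE 0.39, adjusted p = 0.121). In Ls174 ADAM17 stood at 66.1 ± 8.92 CPM without and at 30.9 ± 2.98 CPM with HME (-1.10, SE 0.21, adjusted p = 0.0504). Its change in HepG2 was 0.37 (SE 0.35, adjusted p = 0.567).

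Of 21 genes for signalling next to the receptor, none was called in either line among the 21 tested in HepG2 and the 20 tested in Ls174, by edgeR. The thresholds of the study passed 4 higher and 1 lower in HepG2, against 11.3% and 10.9% of all genes. In Ls174 they passed 0 higher and 1 lower, against 4.11% and 7.85% of all genes. SOS1, an activator of RAS, had a value of 1.22 in HepG2 (SE 0.33, adjusted p = 0.0773), and PLCG1, a phospholipase that binds activated receptors, had a value of -1.10 there (SE 0.34, adjusted p = 0.102). Of 15 genes for receptor degradation and inhibition, 12 were tested in HepG2 and 14 in Ls174. In HepG2 1 was called higher, against 2.77% of all genes, and in Ls174 1 was called lower, against 0.866%. SOCS5, which promotes degradation of EGFR, rose in HepG2 from 14.5 ± 3.11 to 40.8 ± 4.72 CPM (1.49, SE 0.31, adjusted p = 0.0336), a call that was lost with scaling by library size alone (adjusted p = 0.0702) and when any library other than control 2 was left out (up to 0.138). LRIG1, a membrane protein that restrains the receptors, fell in Ls174 from 58.8 ± 6.15 to 25.6 ± 2.46 CPM (-1.20, SE 0.20, adjusted p = 0.0357). It was also lower with HME in HepG2, at 7.87 ± 0.64 against 14.8 ± 1.43 CPM, but not called (-0.89, SE 0.36, adjusted p = 0.185). The difference between the lines was 0.31 (SE 0.38, adjusted p = 0.811). CBLC, with the lowest p of the list for the difference between the lines (adjusted p = 0.0689), was at 0 CPM in all HepG2 HME and at 1.64 ± 0.842 CPM in HepG2 control libraries, with at most 6 counts and too few for a test there, and at 4.14 ± 1.11 CPM without and 8.56 ± 3.29 CPM with HME in Ls174.

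The last list held 10 genes that respond to the MAPK cascade. In HepG2, of 9 tested, 2 were called higher, against 2.77% of all genes, and 7 were higher by the thresholds of the study, against 11.3% of all genes, with a median log2 fold change of 1.78 beside -0.04 over all genes. DUSP6, a phosphatase that switches off ERK, stood at 51.6, 15.6 and 61.8 CPM without and at 176, 296 and 309 CPM with HME in HepG2 (2.62, SE 0.49, adjusted p = 0.0197). SPRY2, an inhibitor of receptor signalling, stood at 4.57, 2.49 and 4.04 CPM without and at 13.8, 13.4 and 18.6 CPM with HME (2.00, SE 0.41, adjusted p = 0.032). The SPRY2 call was lost with scaling by library size alone (adjusted p = 0.0575) and when any library other than control 2 was left out (up to 0.149), and the DUSP6 call without control 1, HME 2 or HME 3 (up to 0.0904). In both genes every HME library was above every control library, with the lowest control value in control 2. In Ls174, 9 were tested with a median of 0.30. By the thresholds of the study 3 were higher and 0 lower there, against 4.11% and 7.85% of all genes. At an adjusted p below 0.05, 1 was called higher, against 0.318% of all genes. This was DUSP4, another ERK phosphatase, which rose from 27.3 ± 6.01 to 70.8 ± 0.735 CPM (1.37, SE 0.23, adjusted p = 0.0348). In HepG2 DUSP4 was also higher with HME, at 9.01 ± 3.87 against 1.54 ± 1.17 CPM. That change of 2.60 (SE 0.65) was not called (adjusted p = 0.0624), and each HepG2 control library held at most 7 counts. For the difference between the lines, SPRY2 had the lowest p of this list (1.95, SE 0.43, adjusted p = 0.0615), and none of the genes in these lists was called.

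**Figure D5:**
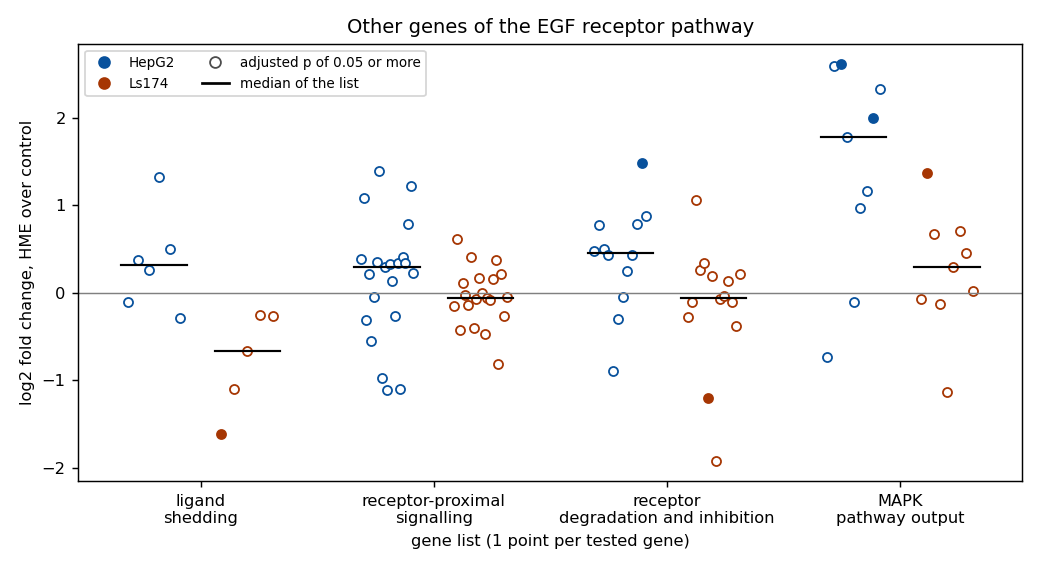
Log2 fold change of HME over control (vertical axis) for each tested gene of 4 pathway lists (horizontal axis), in HepG2 (blue, left of each pair) and Ls174 (brown, right); filled points have an adjusted p below 0.05 and black lines are medians. The MAPK output list has a median of 1.78 in HepG2 and 0.30 in Ls174, and the shedding list 0.32 and -0.67.

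The genes most like 4 of the members were sought over the 12 libraries among 13040 genes, by Pearson's r of log2 CPM after each line's mean was subtracted. These values describe 12 libraries that share 2 treatments, so that a shared response to HME alone gives a high r. For AREG they were ISCA1 (r = 0.974), OSGIN1 (0.964) and GADD45B (0.958), and for EREG they were GADD45B (0.961), SLC7A11 (0.952) and KAT5 (0.948). OSGIN1 and SLC7A11 are known targets of the oxidative stress factor NRF2, and GADD45B is a stress response gene. In HepG2, OSGIN1 had a mean of 54.3 CPM without and 335 CPM with HME. For HBEGF they were RNF114 (0.986), ATF3 (0.983) and C6orf1 (0.977). ATF3, a stress-induced transcription factor, went from 4.35 ± 2.17 to 215 ± 44.4 CPM with HME in HepG2 and from 3.08 ± 2.96 to 9.46 ± 1.08 CPM in Ls174. For EGFR they were MAN2A1 (0.942), CERS6 (0.941) and CPD (0.938), enzymes of the secretory pathway and of ceramide synthesis. CPD was at 65.8 and 72.9 CPM in HepG2 without and with HME and at 60.6 and 20.7 CPM in Ls174.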

How the data were processed

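RNA of 12 cultures, described as biological triplicates, was measured. The authors prepared QuantSeq 3′ libraries, sequenced them on an Ion Proton, aligned the reads to hg19 with Hisat2 and counted them with metaseqR2; the submitters' processing notes also name Bowtie2 and Trimmomatic. The deposited files hold the raw, whole-number read counts of 3′ regions, not normalized. The treatment of strand and of reads with several alignments is not given in the sources used here. Counts were summed per gene over 144910 regions.

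Each comparison was fitted with edgeR 4.0.16 (TMM, filterByExpr, quasi-likelihood test, Benjamini-Hochberg adjustment) under R 4.3.3, with DESeq2 1.42.0 as an alternative, and the steps were tested on simulated data. The study names a binomial test, in place of which edgeR was used to model the spread between replicates. Regions were annotated with GENCODE on GRCh37. A prior count of 2 entered the log2 CPM for similar genes. The 9 genes, the gene lists and the rules for named genes were chosen with earlier results of these data known: all members, the called genes of each list or otherwise the lowest p-values, and the 3 most similar genes. A result that this rule would name in the signalling list is not reported here. Alternatives were other scalings, filters and regions, a replicate block, DESeq2, 1 common fit, and leaving out each library.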

Additional observations from a re-analysis of the deposited data

How the results depend on the processing

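The number of members called depended on the libraries and settings more than their direction did: with HME, no change in either line reversed under any alternative. In HepG2 the count of 4 ranged from 1 to 6 when 1 library was left out (6 without control 2, 1 without HME 1 or HME 3), while between 95 and 921 genes in all were called. It was 2 with the replicate block, 5 with DESeq2 (1033 genes in all) and 6 with no filter beyond 1 count (1407 genes). It was 6 in 1 fit of all 12 libraries (807 genes) and 3 of 7 tested with at least 10 counts in every library (188 genes). In Ls174 the count of 1 ranged from 0 to 6 when 1 library was left out. It was 5 with DESeq2, 0 with its size factors in edgeR, 2 with library size alone, 0 with upper-quartile scaling, 6 with no filter beyond 1 count, 2 of 4 tested with at least 10 counts in every library, 0 with the replicate block, 2 with the region with the most counts and 4 in 1 fit of all 12 libraries. Over all genes the counts were 134 at the settings of the report, 434 with DESeq2, 129 with its size factors, 137 with library size alone, 123 with upper-quartile scaling, 604 with no filter, 148 with at least 10 counts, 0 with the block, 135 with the main region and 100 in 1 fit. For the difference between the lines the count of 0 ranged from 0 to 2 when 1 library was left out and was 2 with DESeq2, 1 with its size factors, 1 with no filter, 1 with the region with the most counts and 2 without both controls that lay apart. Between the untreated lines the count of 1 ranged from 1 to 2 when 1 library was left out. It was 2 with DESeq2, its size factors, no filter or the region with the most counts, 3 in 1 fit of all 12 libraries and 3 without both controls that lay apart. With HME the count of 6 stayed between 4 and 6. The cause of these moves was not tested.

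The reversals were of values near 0 that were not called. For the difference between the lines, ERBB3 was at -0.02 with library size alone, -0.06 with upper-quartile scaling and -0.07 with the region with the most counts, and between -0.29 and 0.29 with 1 library left out. AREGB was at 0.01 with the region with the most counts, 0.40 without both controls that lay apart, and between -0.61 and 0.20 with 1 library left out, and AREG was at 0.27 without both controls and between -0.64 and 0.16 with 1 left out. Between the untreated lines, AREG was at 0.01 with DESeq2 or its size factors, 0.15 with the replicate block, 0.02 with the region with the most counts, and between -0.39 and 0.46 with 1 library left out. ERBB2 was at 0.01 with DESeq2, 0.00 with its size factors, 0.02 with the region with the most counts, 0.11 without both controls, and between -0.22 and 0.10 with 1 left out, and AREGB was between -0.47 and 0.39.

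Scaling by library size alone moved the median log2 fold change of all genes from -0.04 to -0.20 with HME in HepG2 and from 0.01 to -0.28 between the lines with HME. Same-numbered libraries did not deviate together (correlations between -0.15 and 0.07 within lines). With 3 libraries per group these values cannot decide whether the cultures were paired, and the sources used here do not say. With the replicate block 349 genes were called in HepG2 and 0 in Ls174, in place of 375 and 134. Of the 3 genes most like HBEGF, 1 was among the first 3 when CPM was set by library size alone. Counts of HBEGF in HepG2 control and of EGFR in Ls174 HME libraries were too few for precise folds.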
